A study of Homo sapiens with 6 samples.

Results

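The genes described here are the host genes of small nucleolar RNAs (snoRNAs) and a set of abundant long noncoding RNAs in HCT116 cells with and without *ZKSCAN3*. They were chosen by name. Every row of the gene table whose symbol is SNHG followed by a number was taken (28 rows), together with listed genes such as *GAS5*, *ZFAS1*, *NEAT1*, *MALAT1* and *NORAD*, which gave 44 of the 46427 genes in the table. Of these, 32 were treated as snoRNA hosts (the SNHG rows, *GAS5*, *ZFAS1*, *EPB41L4A-AS1* and *DANCR*) and 12 as other long noncoding RNAs. HCT116 is a human colon carcinoma line. The *ZK3*-WT group was the parental line and the *ZK3*-KO group was an HCT116 line with mutations in both alleles of *ZKSCAN3*, made by CRISPR/Cas9 cutting in exon 1 and puromycin selection, and 3 replicate libraries of polyadenylated RNA were sequenced from each. Both lines were grown in the same serum-containing medium. With 1 knockout line, an effect of the lost gene and a difference that is particular to the line cannot be told apart. The reads counted per library were between 60827060 and 69739215, and the 44 genes took 0.379%, 0.425% and 0.483% of them in *ZK3*-WT replicates 1 to 3 and 0.261%, 0.214% and 0.412% in *ZK3*-KO replicates 1 to 3.

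*ZKSCAN3* itself was counted at 23.8 ± 4.17 CPM (reads scaled to the size of the library; SD, n = 3) in *ZK3*-WT and at 21.3 ± 6.68 CPM in *ZK3*-KO libraries, and counts per gene do not show the edited site. The epithelial markers *EPCAM*, *KRT8*, *KRT18*, *KRT19* and *CDH1* passed the filter on low counts in the libraries of these epithelial cells, *VIL1* did not, and of 7 markers of other cell types *PTPRC*, *PECAM1*, *COL3A1* and *CD3E* did not, while *COL1A1*, *CD68* and *DES* were at 32.2 to 98.8, 1.69 to 10.1 and 1.08 to 2.99 CPM. *ZK3*-KO replicate 3 stood apart. Across genes, its log2 CPM had correlations of 0.963 and 0.950 with the other *ZK3*-KO libraries, which had 0.985 with each other. With *ZK3*-WT replicates 1 to 3 it had 0.952, 0.952 and 0.965, so its closest library was *ZK3*-WT replicate 3. Standard errors are written as SE. The values of the single libraries and of a fit without *ZK3*-KO replicate 3 are therefore given below beside most results. In bulk RNA, fewer cells that express a gene and less RNA per cell cannot be told apart.

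Most human snoRNAs are cut out of introns. Box C/D snoRNAs guide the methylation of ribosomal RNA and box H/ACA snoRNAs guide the conversion of uridine to pseudouridine. A host gene of the SNHG type carries its useful product in the introns, while the spliced exons form a noncoding RNA that is exported, is often bound by ribosomes at its short reading frames and is degraded by nonsense-mediated decay. Many host genes start, like ribosomal protein genes, within a pyrimidine tract, the 5′ terminal oligopyrimidine (TOP) motif, through which mTOR signalling controls the use and the stability of the transcript. *GAS5* took its name (growth arrest-specific) from its build-up in cells that stop growing. The other long noncoding RNAs work in other ways. *NEAT1* is the scaffold of nuclear paraspeckles, *MALAT1* lies in nuclear speckles, *NORAD* binds Pumilio proteins in the cytoplasm, and *MIR17HG* is the precursor of the miR-17-92 microRNA cluster.

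By RefSeq annotation, 27 of the 32 hosts held at least 1 snoRNA within their span and none of the 12 other genes did. *GAS5* held 11 and *SNHG1* held 9. No snoRNA was listed within *SNHG10*, *SNHG20*, *SNHG21*, *SNHG22* or *SNHG27*, although the GENCODE annotation of GRCh37 places small Cajal body RNAs within *SNHG10* (SCARNA13) and *SNHG22* (SCARNA17 and SCARNA18). The sequences below show what some hosts of the main comparison carry. They are GENCODE transcripts with GRCh37 positions, and the capitals mark a C box (TGATGA), a D box (CTGA) or the ACA box near the 3′ end. The *ZFAS1* introns hold 3 relatives of SNORD12, *SNHG32* and *SNHG16* are represented by box C/D snoRNAs, and *DANCR* and *EPB41L4A-AS1* by box H/ACA snoRNAs.
SNORD12C in ZFAS1 (chr20:47895477-47895565, + strand): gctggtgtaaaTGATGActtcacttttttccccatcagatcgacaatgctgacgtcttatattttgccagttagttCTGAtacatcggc
SNORD12B in ZFAS1 (chr20:47896856-47896946, + strand): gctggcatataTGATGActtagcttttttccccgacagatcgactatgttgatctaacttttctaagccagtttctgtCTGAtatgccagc
SNORD12 in ZFAS1 (chr20:47897220-47897309, + strand): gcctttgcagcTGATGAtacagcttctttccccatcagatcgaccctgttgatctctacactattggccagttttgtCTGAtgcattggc
SNORD48 in SNHG32 (chr6:31803040-31803103, + strand): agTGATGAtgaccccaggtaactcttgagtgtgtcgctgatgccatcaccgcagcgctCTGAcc
SNORD52 in SNHG32 (chr6:31804853-31804919, + strand): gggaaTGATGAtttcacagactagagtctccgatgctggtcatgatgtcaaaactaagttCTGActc
SNORD1B in SNHG16 (chr17:74557191-74557274, + strand): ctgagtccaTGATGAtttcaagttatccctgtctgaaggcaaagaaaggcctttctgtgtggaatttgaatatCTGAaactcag
SNORA26 in DANCR (chr4:53579416-53579537, + strand): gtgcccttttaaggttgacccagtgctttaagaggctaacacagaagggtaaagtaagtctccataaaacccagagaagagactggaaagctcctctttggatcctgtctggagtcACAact
SNORA13 in EPB41L4A-AS1 (chr5:111497182-111497314, + strand): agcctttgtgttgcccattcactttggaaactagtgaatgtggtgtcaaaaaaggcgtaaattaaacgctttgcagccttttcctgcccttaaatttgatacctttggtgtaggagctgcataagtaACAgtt

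These products were barely sampled by the libraries. Of 63 snoRNAs within hosts other than *SNHG14*, 60 had a row of their own in the table, and their reads summed to between 3304 in *ZK3*-KO replicate 1 and 5427 in *ZK3*-WT replicate 3. The comparison below therefore concerns the spliced, polyadenylated host transcript and not the snoRNA.

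Next, the annotated transcription starts were read from RefSeq promoter sequences, which were present for 36 of the 44 genes. A run of at least 6 pyrimidines (C or T) that began within 10 bases of the annotated start was found in 17 of 28 host promoters (60.7%), in 62 of 79 promoters of ribosomal protein genes (78.5%), in 2 of 11 promoters of the other long noncoding RNAs (18.2%) and in 24.7% of all 35116 promoters. *MALAT1* and *MEG3* had repeated promoter entries, each of them counted, so the 11 promoters came from fewer genes. The tract of *MALAT1* was in only some of its entries. The sequences below run from 20 bases before the annotated start to 29 bases after the first transcribed base (GRCh38.p14, RefSeq), with the tract in capitals. The first 6 are hosts with a tract, and the last 3 are further hosts in which no such run began within that distance, although in *SNHG29* a run that began further upstream reached into it.
ZFAS1 (chr20:49278622-49278671, + strand): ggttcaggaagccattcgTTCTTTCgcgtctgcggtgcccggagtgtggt
SNHG1 (chr11:62855856-62855905, - strand): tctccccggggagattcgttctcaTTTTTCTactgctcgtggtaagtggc
SNHG5 (chr6:85678704-85678753, - strand): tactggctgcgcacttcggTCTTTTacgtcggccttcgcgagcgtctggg
SNHG8 (chr4:118278742-118278791, + strand): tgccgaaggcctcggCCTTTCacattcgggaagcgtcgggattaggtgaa
SNHG32 (chr6:31834896-31834945, + strand): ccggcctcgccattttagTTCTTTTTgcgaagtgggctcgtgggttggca
SNHG16 (chr17:76557744-76557793, + strand): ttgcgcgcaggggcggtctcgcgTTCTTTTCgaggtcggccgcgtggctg
GAS5 (chr1:173869016-173869065, - strand): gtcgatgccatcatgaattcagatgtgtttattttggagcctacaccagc
SNHG29 (chr17:16438967-16439016, + strand): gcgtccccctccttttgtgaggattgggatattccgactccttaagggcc
EPB41L4A-AS1 (chr5:112160506-112160555, + strand): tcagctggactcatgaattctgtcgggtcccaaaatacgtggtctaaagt

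The E-box CACGTG, searched on both strands over 250 bases before and 50 bases after the start, was present in 2 host promoters (7.14%, *SNHG7* and *SNHG30*), 3 promoters of other long noncoding RNAs (27.3%, *NORAD*, *OIP5-AS1* and *TUG1*) and 7.26% of all promoters. The 27.3% is a share of the 11 entries, in which *MALAT1* and *MEG3* were repeated, and not of genes. The TCF motif CTTTGAT, searched in the same way because the study concerns WNT signalling, was present in none of the 39 windows and in 2.62% of all promoters.

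The abundance of the genes was ordered by the deposited TPM, which are scaled by transcript length. The snoRNA hosts led the order. In *ZK3*-WT cells the highest were *SNHG29* at 1129 ± 113 TPM (SD, n = 3), *GAS5* at 857 ± 292 TPM, *SNHG1* at 469 ± 126 TPM, *ZFAS1* at 431 ± 141 TPM and *SNHG32* at 387 ± 96.4 TPM. The *ZK3*-WT ranges of each of these 5 overlapped with that of the next, so that their order within the group was not resolved by 3 libraries. *NEAT1*, at 364 ± 79.4 TPM, was the most abundant of the other long noncoding RNAs and the lowest of its 3 values was above the whole range of *SNHG8* (232 ± 74.4 TPM), the next gene. *NORAD* followed at 166 ± 17.1 TPM and *MALAT1* at 101 ± 20.9 TPM.

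In *ZK3*-KO cells *SNHG29* and *GAS5* kept ranks 1 and 2 of 44. *NEAT1* went from rank 6 to rank 11 with 101 ± 43.2 TPM, *SNHG1* from rank 3 to rank 5 with 249 ± 64.1 TPM, and *SNHG16* from rank 12 to rank 7 with 150 ± 18.1 TPM. At the other end, *SNHG18* and *SNHG27* had 0 reads in all 6 libraries. *SNHG14*, the imprinted host of the SNORD116 and SNORD115 repeats, had at most 2 reads in a library. *MEG3*, an imprinted RNA of chromosome 14, had 4 reads in *ZK3*-WT replicate 1 and at most 2 in any other. These 4 genes did not pass the filter and were not tested. The remaining 40 (29 hosts and 11 others) were compared.

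**Figure D1:**
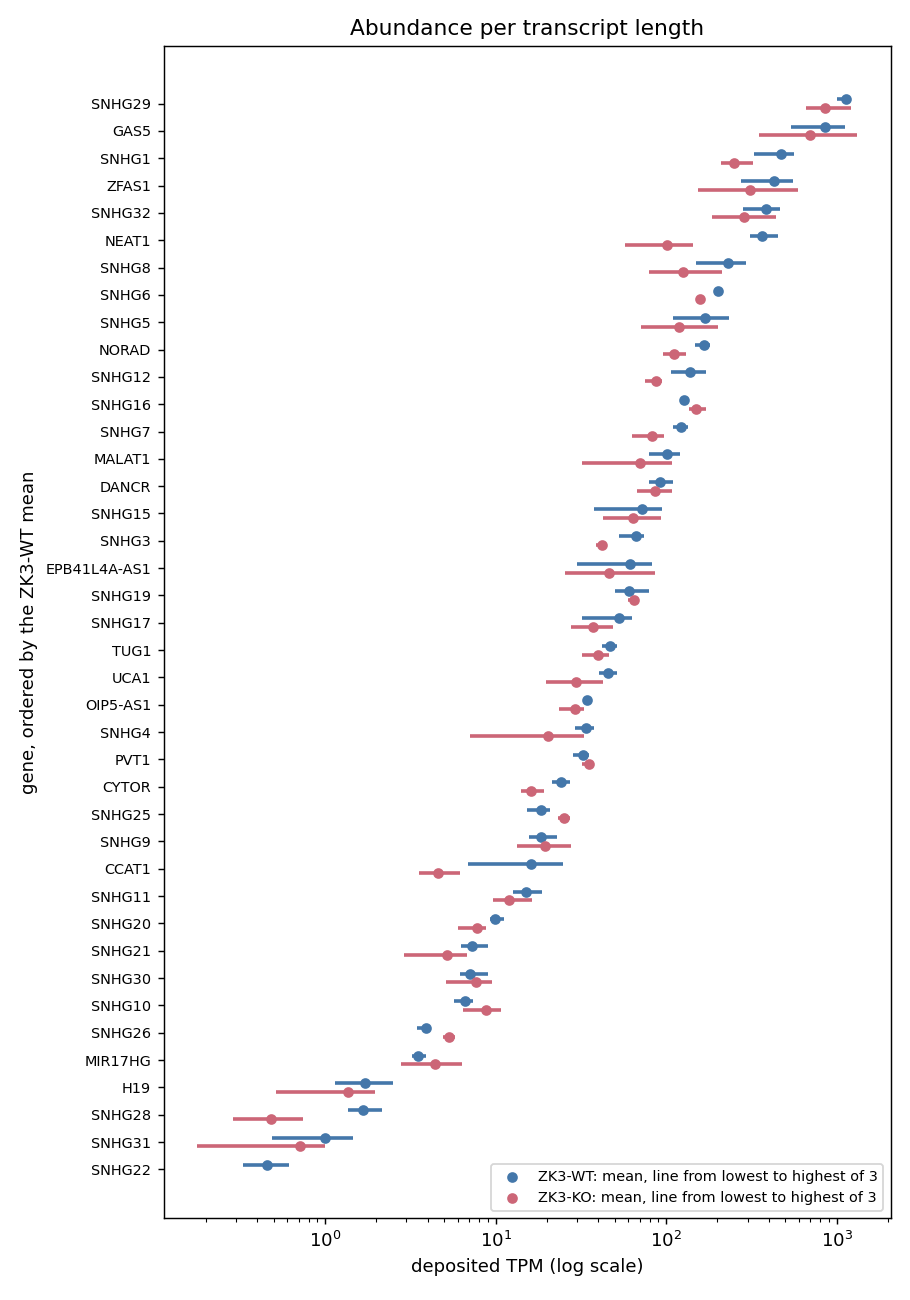
Deposited TPM (log axis) of the 40 tested genes, ordered by the *ZK3*-WT mean, with points for the means and lines from the lowest to the highest of 3 libraries. *SNHG29* and *GAS5* lead in both genotypes, *NEAT1* shows separate ranges in *ZK3*-WT and *ZK3*-KO cells, and *SNHG22* has no *ZK3*-KO point because it was at 0.

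The loss of *ZKSCAN3* was compared over all 18366 tested genes with edgeR's quasi-likelihood test. In all 6 libraries, 1 of the 40 genes fell past a false discovery rate (FDR) of 0.05 (*SNHG22*) and 0 rose, where 2.05% of all tested genes passed, 0.817% higher and 1.23% lower in *ZK3*-KO cells. *SNHG22* had 0 reads in every *ZK3*-KO library and passed the filter through the *ZK3*-WT libraries alone, so its call is no independent support. With at least 10 reads required in every library it was not tested, and 0 of the genes were called. Without adjustment, 10 of the 40 genes and 3371 of all 18366 genes had a p-value under 0.05. The log2 fold change was below 0 for 21 of 29 hosts and 9 of 11 others, with medians of -0.21 and -0.34, beside a median of 0.02 over all tested genes. The groups did not overlap for 7 genes that were lower in every *ZK3*-KO library (*CCAT1*, *NEAT1*, *NORAD*, *OIP5-AS1*, *SNHG7*, *SNHG22* and *SNHG28*) and 4 that were higher (*SNHG10*, *SNHG16*, *SNHG25* and *SNHG26*), beside 13.8% and 12.7% of all tested genes.

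Leaving out *ZK3*-KO replicate 3 changed this count. In that fit 13 of the 40 genes fell, 10 hosts and 3 others, and 0 rose. The hosts were *GAS5*, *ZFAS1*, *SNHG1*, *SNHG3*, *SNHG5*, *SNHG8*, *SNHG22*, *SNHG28*, *SNHG29* and *SNHG32*, and the others were *NEAT1*, *CCAT1* and *UCA1*. Over all genes, 15.1% passed in that fit, 7.41% higher and 7.73% lower. The medians moved to -0.52 for hosts and -0.47 for others, beside -0.02 over all tested genes. Leaving out any other library gave 0 of the 40 genes in either direction, where 0.261% to 0.835% of all tested genes passed. The count of 13 was therefore seen only without *ZK3*-KO replicate 3. That fit kept *ZK3*-WT replicate 3. Across genes, its deviations from the group mean had a correlation of 0.449 with those of *ZK3*-KO replicate 3. With the replicate number as a block and all 6 libraries, 2 of the 40 genes fell, where 2.51% of all tested genes passed. The medians were then -0.35 for hosts and -0.43 for others, beside -0.01 over all tested genes.

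**Figure D2:**
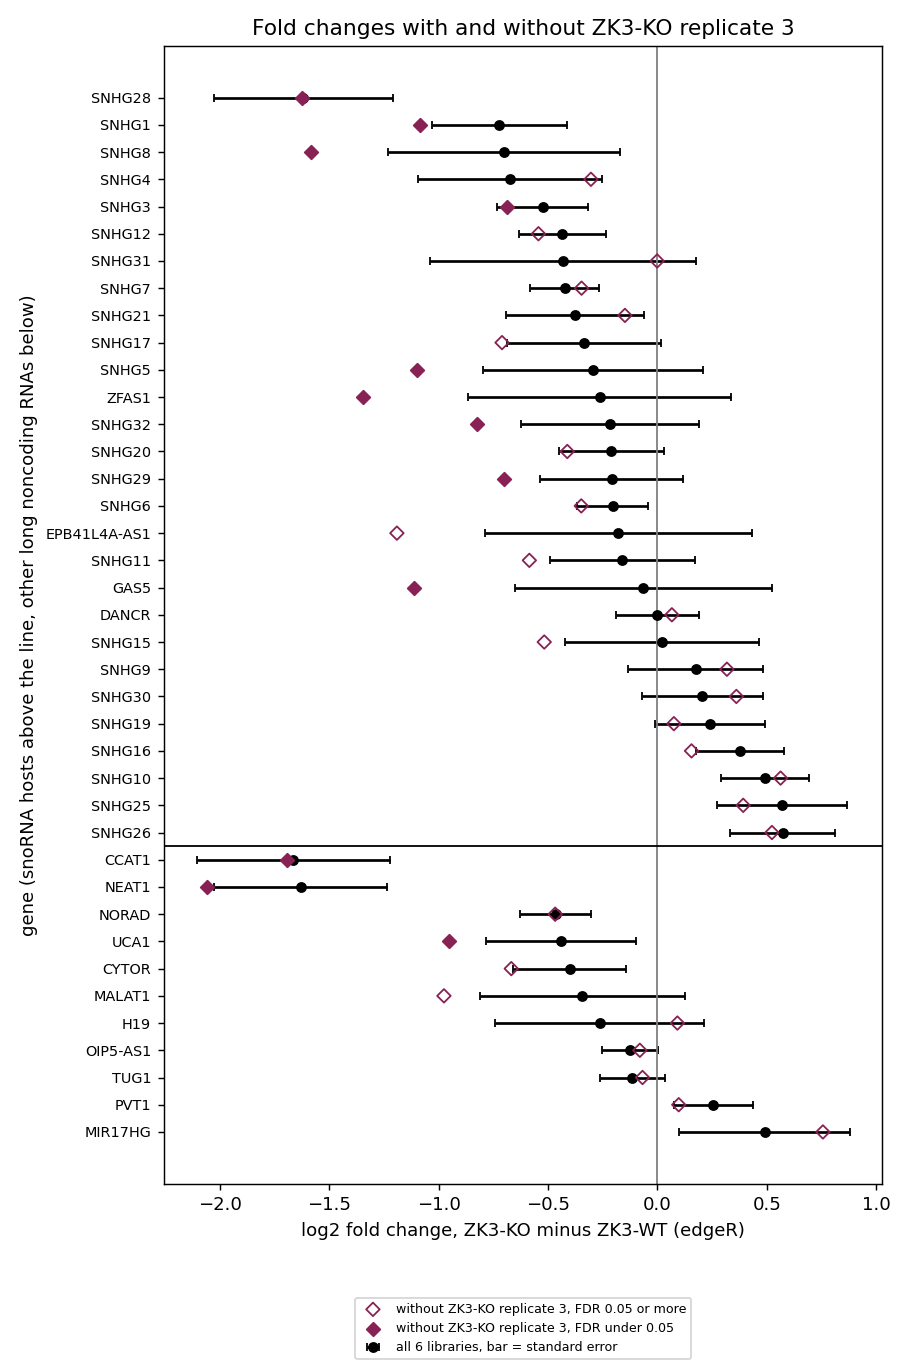
Log2 fold change (*ZK3*-KO minus *ZK3*-WT, edgeR) of 39 tested genes with all 6 libraries (circles, bars are standard errors) and without *ZK3*-KO replicate 3 (diamonds, filled where the FDR was under 0.05). *SNHG22* is not drawn because it was at 0 in *ZK3*-KO cells. Of the filled diamonds, those of *GAS5*, *ZFAS1*, *SNHG5* and *SNHG8* lie furthest from their circles, while those of *SNHG28* and *CCAT1* lie on or next to them.

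Among the hosts, the knockout libraries differed from each other. *GAS5* (NCBI Gene 60674, reverse strand of chromosome 1 of GRCh37 from 173827697 to 173838020) had 161, 264 and 331 CPM in the *ZK3*-WT libraries and 129, 104 and 491 CPM in the *ZK3*-KO libraries, here and below in the order of replicates 1, 2 and 3. *ZK3*-KO replicates 1 and 2 were thus below every *ZK3*-WT library and *ZK3*-KO replicate 3 was above every one. Its change was -0.06 on the log2 scale (SE 0.59, FDR 0.969), and -1.11 (FDR 0.0281) without *ZK3*-KO replicate 3. Over the 13 alternatives the FDR ran from 0.0281 to 0.997.

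*ZFAS1* (forward strand of chromosome 20 from 47894715 to 47916137), host of the SNORD12 family shown above, had the same order of libraries. It had 115, 199 and 236 CPM in *ZK3*-WT and 80.8, 63.0 and 314 CPM in *ZK3*-KO libraries, which is a 4.99-fold range within the knockout group and a 2.05-fold range within the parental group. Its log2 fold change was -0.26 (FDR 0.853), and -1.35 (FDR 0.0170) without *ZK3*-KO replicate 3, the lowest FDR of 13 alternatives, which reached 0.989.

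*SNHG8*, whose *ZK3*-KO values were 21.4, 21.9 and 77.0 CPM against *ZK3*-WT values of 41.0, 69.8 and 84.6 CPM, had *ZK3*-KO replicate 3 within the parental range. On the log2 scale the change was -0.70 (FDR 0.530) and, without that library, -1.59 (FDR 0.00910; 0.00910 to 0.807 over the alternatives). *SNHG1*, host of the SNORD25 to SNORD31 cluster on the reverse strand of chromosome 11 (62619450 to 62623425), was at 228, 338 and 386 CPM in *ZK3*-WT and 148, 150 and 279 CPM in *ZK3*-KO cells. Here *ZK3*-KO replicate 3 was again the highest of its group, but was below *ZK3*-WT replicates 2 and 3, and the difference was -0.72 on the log2 scale (SE 0.31, FDR 0.272). It was -1.09 (FDR 0.0139) without that library, with an FDR of up to 0.616 over the alternatives.

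*SNHG29*, the most abundant host, was at 496, 570 and 597 CPM in *ZK3*-WT and 354, 325 and 759 CPM in *ZK3*-KO cells. *SNHG32* was at 105, 151 and 175 against 91.0, 70.8 and 210 CPM, and *SNHG5*, host of SNORD50A and SNORD50B, at 26.8, 38.1 and 56.4 against 20.3, 17.4 and 61.3 CPM. In each of these 3 genes *ZK3*-KO replicates 1 and 2 lay below all parental libraries and *ZK3*-KO replicate 3 above them all. Their log2 fold changes were -0.21, -0.22 and -0.29 with FDR values of 0.781, 0.820 and 0.800, and -0.70, -0.83 and -1.10 without *ZK3*-KO replicate 3, with FDR values of 0.0132, 0.0375 and 0.0329, the lowest over their alternatives (the highest were 0.996, 0.980 and 0.995). *EPB41L4A-AS1*, host of SNORA13, had the same order (17.3, 39.4 and 46.9 against 15.6, 14.6 and 61.4 CPM), but its log2 fold change of -1.19 without that library had an FDR of 0.0546 (up to 0.989 over the alternatives). *SNHG3*, host of SNORA73A and SNORA73B, was at 76.7, 55.3 and 80.1 against 42.0, 45.2 and 60.1 CPM, so that *ZK3*-KO replicate 3 overlapped with the parental range. Its log2 fold change was -0.52 (FDR 0.241), and -0.69 (FDR 0.0329; up to 0.557 over the alternatives) without that library.

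**Figure D3:**
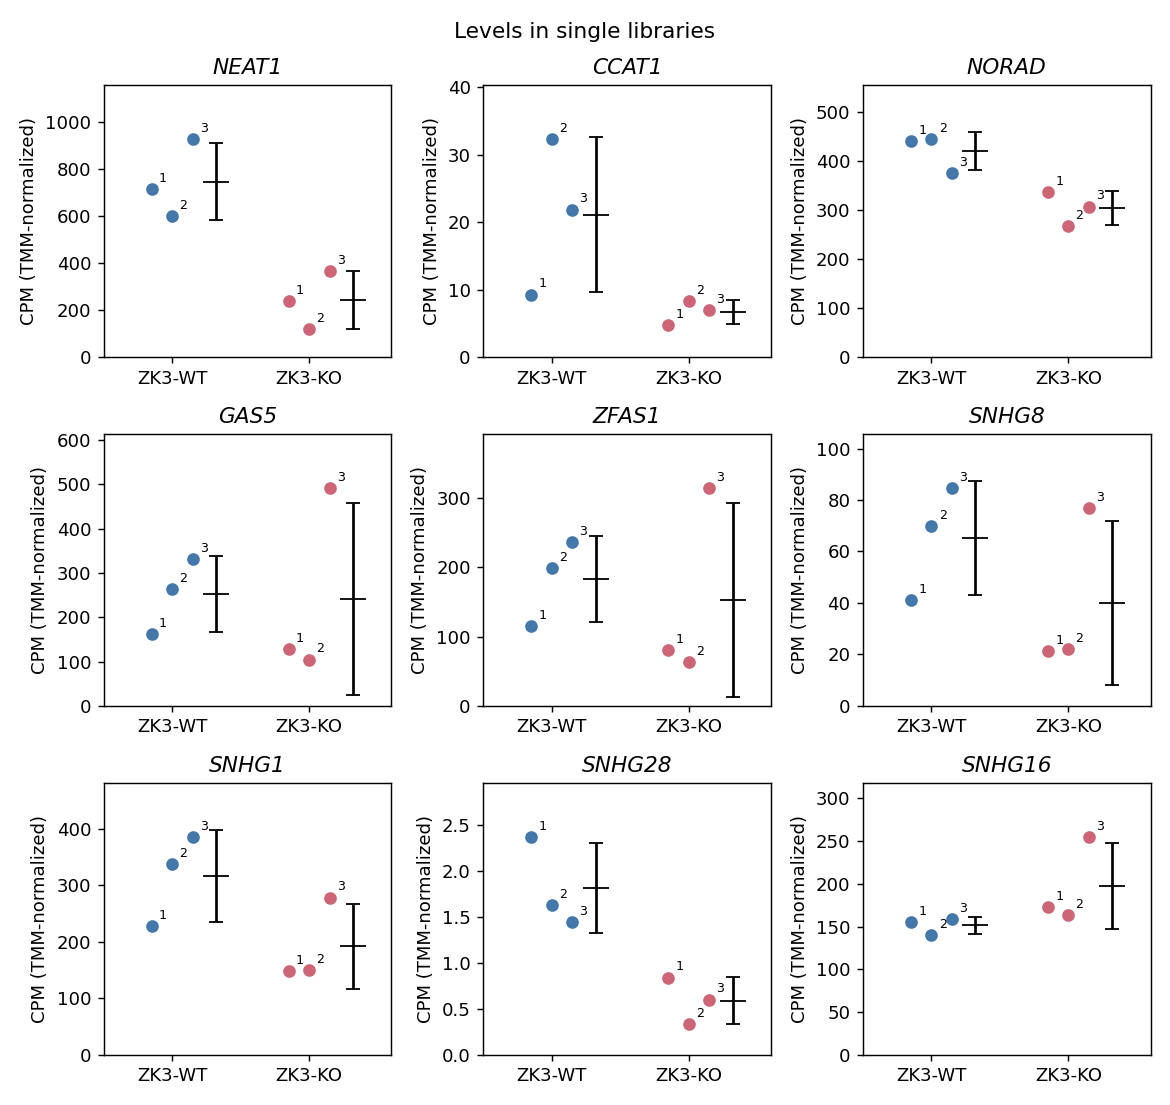
CPM of 9 genes in each library (points, numbered by replicate) with the mean and SD of 3 libraries (bars). *GAS5*, *ZFAS1*, *SNHG8* and *SNHG1* are low in *ZK3*-KO replicates 1 and 2 and high in replicate 3, whereas the *ZK3*-KO points of *NEAT1*, *CCAT1*, *NORAD* and *SNHG28* all lie below the *ZK3*-WT points, and those of *SNHG16* all lie above.

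Over all tested hosts, 16 of 29 (55.2%) had *ZK3*-KO replicates 1 and 2 below every parental library, as had 26.0% of all tested genes. *ZK3*-KO replicate 3 was at least 2-fold above both other *ZK3*-KO libraries for 9 hosts (31.0%), against 7.5% of all tested genes. Measured from the parental mean, the median host was at -0.63, -0.37 and 0.27 on the log2 scale in the *ZK3*-KO libraries and at -0.04, -0.07 and 0.12 in the *ZK3*-WT libraries. The 5 epithelial markers moved with them, with medians of -0.27, -0.27 and 0.61 in the *ZK3*-KO libraries. The 3 tested markers of other cell types were also high in *ZK3*-KO replicate 3, with medians of -0.03, -1.20 and 0.67. The part of either marker list in the result was not tested. The parental libraries varied as well. *ZK3*-WT replicate 1 was the lowest parental library for 13 of 29 hosts (44.8%) and for 35.8% of all tested genes, and the 13 included *GAS5*, *ZFAS1*, *SNHG8* and *EPB41L4A-AS1*. The CPM of all hosts summed to 1758, 2201 and 2523 in *ZK3*-WT replicates and to 1330, 1277 and 2903 in *ZK3*-KO replicates.

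**Figure D4:**
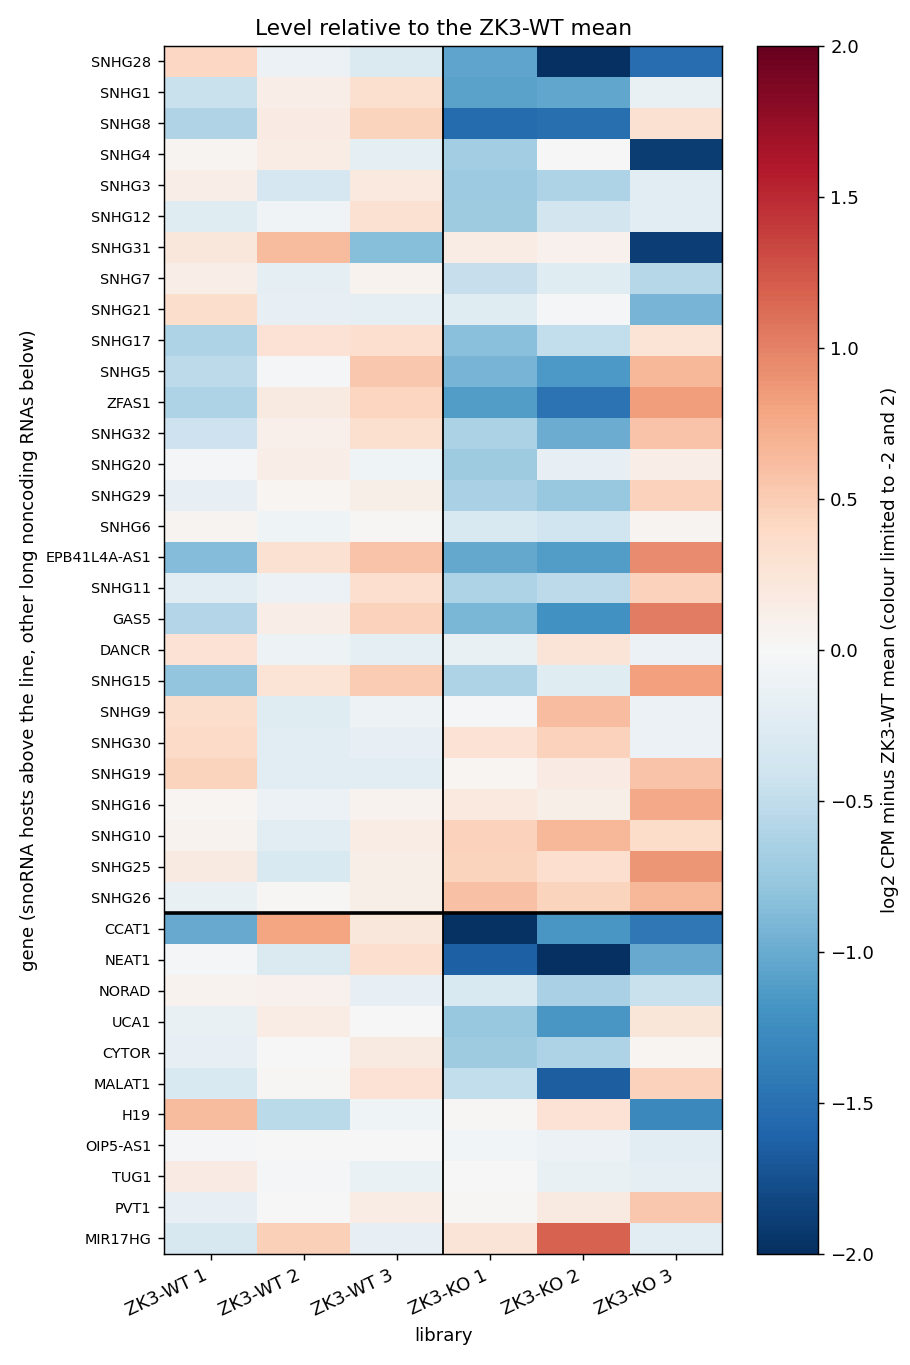
Log2 CPM of 39 tested genes in each library relative to the *ZK3*-WT mean, hosts above the line and other long noncoding RNAs below (red higher, blue lower). Hosts such as *SNHG5*, *ZFAS1*, *SNHG32*, *EPB41L4A-AS1* and *GAS5* are blue in *ZK3*-KO replicates 1 and 2 and in *ZK3*-WT replicate 1, and red in *ZK3*-KO replicate 3, while *CCAT1* and *NEAT1* are blue in all 3 *ZK3*-KO libraries. *SNHG22* is not drawn.

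The tract at the annotated start was set beside these values. The 15 tested hosts with a tract had median log2 levels of -0.71, -0.49 and 0.27 in *ZK3*-KO replicates 1, 2 and 3, and the 10 tested hosts with a promoter entry and no tract by this rule, *SNHG29* and *GAS5* among them, had -0.63, -0.34 and 0.25, so both groups showed the split between the libraries. The rule depends on the annotated start, so hosts with a TOP motif at another start can fall in the second group. A link between TOP starts and the split was not tested. Hosts with a tract were not uniform. *SNHG16*, host of SNORD1A, SNORD1B and SNORD1C, was at 155, 140 and 159 CPM in *ZK3*-WT and 173, 163 and 255 CPM in *ZK3*-KO cells, higher in all 3 knockout libraries, by 0.38 on the log2 scale (SE 0.20, FDR 0.367), and by 0.16 (FDR 0.423) without *ZK3*-KO replicate 3, which was its highest library. *SNHG12* was at 59.6 ± 11.8 CPM in *ZK3*-WT and 44.1 ± 7.48 CPM in *ZK3*-KO libraries (SD, n = 3), with a log2 fold change of -0.43 (FDR 0.303), and -0.54 (FDR 0.0894) without that library. *DANCR*, the host of SNORA26 without a tract, was at 40.6 ± 7.29 and 40.6 ± 6.62 CPM, with a log2 fold change of -0.00 and a standard error of 0.19, and 0.07 (FDR 0.841) without *ZK3*-KO replicate 3.

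The other hosts that were higher in every *ZK3*-KO library were low in abundance. *SNHG10* was at 5.34 ± 0.702 against 7.52 ± 0.819 CPM, *SNHG26* at 1.41 ± 0.130 against 2.10 ± 0.167 CPM and *SNHG25*, host of SNORD104, at 0.985 ± 0.176 against 1.46 ± 0.307 CPM (*ZK3*-WT against *ZK3*-KO; SD, n = 3). Their log2 fold changes were 0.49, 0.57 and 0.57, with FDR values of 0.250, 0.265 and 0.362, and they were 0.56, 0.52 and 0.39 without *ZK3*-KO replicate 3 (FDR 0.0898, 0.202 and 0.409). *SNHG10* lies on chromosome 14, where the median log2 fold change over 502 tested genes was 0.52 and 403 were above 0. The part of this chromosome-wide shift in the *SNHG10* value was not tested. *SNHG7* was lower in every *ZK3*-KO library, with 61.0 ± 6.96 against 45.5 ± 5.34 CPM (SD, n = 3) and a log2 fold change of -0.42 (FDR 0.219), or -0.35 (FDR 0.148) without *ZK3*-KO replicate 3.

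The remaining tested hosts had log2 fold changes between -0.67 (*SNHG4*, FDR 0.438) and 0.24 (*SNHG19*, FDR 0.661). They were *SNHG4*, *SNHG31*, *SNHG21*, *SNHG17*, *SNHG20*, *SNHG6*, *SNHG11*, *SNHG15*, *SNHG9*, *SNHG30* and *SNHG19*. Without *ZK3*-KO replicate 3 their log2 fold changes lay between -0.71 (*SNHG17*, against -0.34 with all libraries) and 0.36 (*SNHG30*), and none passed (lowest FDR 0.100, *SNHG6*). In that fit *SNHG15* moved from 0.02 to -0.52, *SNHG11* from -0.16 to -0.59, *SNHG20* from -0.21 to -0.41, *SNHG4* from -0.67 to -0.30, *SNHG21* from -0.38 to -0.15, *SNHG31* from -0.43 to -0.0011 and *SNHG19* from 0.24 to 0.08. *SNHG15* and *SNHG17* followed the order of *GAS5* in that *ZK3*-KO replicate 3 (47.9 and 31.5 CPM) was well above *ZK3*-KO replicates 1 and 2 (17.7 and 22.9, and 14.7 and 18.6 CPM). *SNHG4* and *SNHG31* had the opposite order, with 4.50 and 0.243 CPM in *ZK3*-KO replicate 3 against 10.4 and 16.9, and 1.09 and 1.04 CPM, in the others. *SNHG3*, *SNHG4* and *SNHG20* overlap the protein-coding genes *RCC1*, *MATR3* and *SEC14L1* on the same strand, so the division of reads between them is uncertain.

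The hosts with the largest fold changes, *SNHG22* and *SNHG28*, were scarce, and leaving out *ZK3*-KO replicate 3 did little to their fold changes. *SNHG22* (forward strand of chromosome 18 from 47340335 to 47377429) had 21, 18 and 34 reads in *ZK3*-WT libraries and 0 in each *ZK3*-KO library. It entered the test through the *ZK3*-WT libraries alone. It was at least 23.4-fold lower in *ZK3*-KO cells, when the 73 *ZK3*-WT reads are set against a floor of 3 reads over the 3 *ZK3*-KO libraries (FDR 0.0283 in edgeR's test, 4.58e-05 to 0.152 over 12 alternatives). Without *ZK3*-KO replicate 3 the FDR was 0.00774. The call was lost when *ZK3*-WT replicate 1, 2 or 3 was left out (FDR 0.126, 0.152 and 0.147), when *ZK3*-KO replicate 1 or 2 was left out (FDR 0.0994 and 0.0616), and with the replicate number as a block (FDR 0.0528). The start of *SNHG22* lies 12 bases from that of *ACAA2*, a mitochondrial thiolase on the other strand, which was at 17.7 ± 2.74 CPM in *ZK3*-WT and 21.9 ± 4.97 CPM in *ZK3*-KO cells (log2 fold change 0.31, FDR 0.495; with *ZK3*-KO replicate 3 left out, 0.49, FDR 0.0730). SCARNA17, within *SNHG22*, was at 0.841 ± 0.0630 and 0.609 ± 0.00538 CPM (log2 fold change -0.47, FDR 0.423). *MYO5B*, which overlaps *SNHG22* on the other strand, had a log2 fold change of 0.03 (FDR 0.961), and -0.22 (FDR 0.280) without that library.

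*SNHG28* (reverse strand of chromosome 1 from 159804270 to 159824861) was at 2.37, 1.63 and 1.44 CPM in *ZK3*-WT and 0.838, 0.332 and 0.599 CPM in *ZK3*-KO cells, and the groups did not overlap. It differed by -1.62 on the log2 scale (SE 0.41, FDR 0.101), and -1.63 (FDR 0.0386) without *ZK3*-KO replicate 3. The FDR ran from 0.00542 with DESeq2 to 0.318 over the alternatives.

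Among the other long noncoding RNAs, *NEAT1* and *CCAT1* were lower in every *ZK3*-KO library. *NEAT1* (forward strand of chromosome 11 from 65190245 to 65213011) had 714, 602 and 928 CPM in *ZK3*-WT and 238, 119 and 367 CPM in *ZK3*-KO libraries, and the highest knockout value was well below the lowest parental value. The means were 748 ± 166 and 241 ± 124 CPM (SD, n = 3). This is a log2 fold change of -1.63 (SE 0.39, FDR 0.0916), and -2.06 (FDR 0.00415) without *ZK3*-KO replicate 3. With the replicate number as a block, *NEAT1* fell by 1.75 on the log2 scale (FDR 0.0228 in edgeR's test). It also passed with DESeq2 and with limma on TPM (FDR 0.00124 and 0.0346), and over the 13 alternatives the FDR reached 0.306. *CCAT1*, a transcript near *MYC* that is abundant in colon cancer, was at 9.26, 32.3 and 21.9 CPM in *ZK3*-WT and 4.75, 8.29 and 6.94 CPM in *ZK3*-KO libraries. The parental libraries differed by up to 3.49-fold, and *ZK3*-WT replicate 1 lay close to the highest *ZK3*-KO library. For *CCAT1* the log2 fold change was -1.67 (SE 0.44, FDR 0.114), -1.69 (FDR 0.0433) without *ZK3*-KO replicate 3 and -1.53 (FDR 0.0272) with the block, and the FDR ran from 0.00501 to 0.399 over the alternatives.

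*NORAD* was at 440, 444 and 375 CPM in *ZK3*-WT and 337, 268 and 307 CPM in *ZK3*-KO libraries, lower in each, by -0.47 on the log2 scale (SE 0.16, FDR 0.196), and the value was also -0.47 (FDR 0.0653; up to 0.546 over the alternatives) without *ZK3*-KO replicate 3. Its protein partner *PUM2* had a log2 fold change of -0.09 (FDR 0.853), and 0.10 (FDR 0.645) without that library. *UCA1*, a cytoplasmic RNA first described in bladder cancer, was at 44.7, 54.8 and 49.9 against 29.2, 22.0 and 58.8 CPM, with *ZK3*-KO replicate 3 above all parental libraries. Its log2 fold change was -0.44 (FDR 0.541), and -0.95 (FDR 0.0106; up to 0.837 over the alternatives) without that library.

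*MALAT1* was at 335, 422 and 508 against 295, 132 and 569 CPM, the widest range of an abundant RNA of this group within the knockout (4.30-fold). It differed by -0.34 on the log2 scale (SE 0.47, FDR 0.747), and -0.98 (FDR 0.0655) without *ZK3*-KO replicate 3. *CYTOR* was at 5.68, 6.33 and 7.21 against 3.88, 4.15 and 6.52 CPM (log2 fold change -0.40, FDR 0.456, and -0.67, FDR 0.0616, without that library). *OIP5-AS1* was slightly lower in every *ZK3*-KO library (141 ± 2.24 against 129 ± 6.93 CPM, log2 fold change -0.13, FDR 0.658), and reads shared with the overlapping *NUSAP1* on the same strand make its level uncertain. *TUG1* was at 167 ± 17.4 and 154 ± 12.0 CPM, with a log2 fold change of -0.12 (FDR 0.733). The changes of *OIP5-AS1* and *TUG1* were -0.08 (FDR 0.684) and -0.07 (FDR 0.770) when that library was left out.

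*H19*, an imprinted RNA that is abundant in fetal tissue, was scarce in HCT116 cells, with 2.83, 1.24 and 1.70 CPM in *ZK3*-WT and 1.85, 2.22 and 0.728 CPM in *ZK3*-KO libraries. Its log2 fold change was -0.26 (FDR 0.812) and turned to 0.09 (FDR 0.888) without *ZK3*-KO replicate 3, and its imprinted neighbour *IGF2* was at a log2 fold change of 0.03 (FDR 0.946). *PVT1*, a neighbour of *MYC*, was at 26.5, 29.9 and 32.8 against 30.0, 33.4 and 43.2 CPM (log2 fold change 0.26, FDR 0.501; with *ZK3*-KO replicate 3 left out, 0.10, FDR 0.698). *MYC* itself was at 206, 412 and 373 against 236, 282 and 250 CPM (log2 fold change -0.37, FDR 0.503), and *ZK3*-WT replicate 1 was its lowest library.

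*MIR17HG* carries the microRNAs printed below, mature sequences from RefSeq (GRCh38.p14) with the seed, bases 2 to 8, in capitals. The seeds fall into groups, since miR-17-5p and miR-20a-5p share AAAGUGC and miR-19a-3p and miR-19b-3p share GUGCAAA.
miR-17-5p (chr13:91350618-91350640, + strand): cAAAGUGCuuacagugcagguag
miR-18a-5p (chr13:91350756-91350778, + strand): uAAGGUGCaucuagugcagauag
miR-19a-3p (chr13:91350939-91350961, + strand): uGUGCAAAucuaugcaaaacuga
miR-20a-5p (chr13:91351072-91351094, + strand): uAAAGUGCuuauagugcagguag
miR-19b-3p (chr13:91351245-91351267, + strand): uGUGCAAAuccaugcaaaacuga
miR-92a-3p (chr13:91351361-91351382, + strand): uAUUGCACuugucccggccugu

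The *MIR17HG* transcript was at 4.45, 7.70 and 4.95 CPM in *ZK3*-WT and 6.66, 12.6 and 4.81 CPM in *ZK3*-KO libraries, with replicate 2 the highest in both groups. The difference was 0.49 on the log2 scale (SE 0.39, FDR 0.551), and 0.76 (FDR 0.138) without *ZK3*-KO replicate 3. Of 6 textbook targets of the cluster, 1 fell and 0 rose, where 1.23% of all tested genes passed lower and 0.817% higher. The gene that fell was *TGFBR2*, a receptor of TGF-beta, at 50.8, 87.8 and 71.3 against 24.6, 29.9 and 24.6 CPM (log2 fold change -1.41, FDR 0.0275). *CDKN1A*, *E2F1*, *BCL2L11* and *THBS1* had log2 fold changes between -0.51 and 0.53 and did not pass. Of 8 genes of microRNA processing, none passed (median log2 fold change 0.07). In the fit without *ZK3*-KO replicate 3, 1 of the targets rose, the cell cycle factor *E2F1* (0.69, FDR 0.0262), and 2 fell, *TGFBR2* (-1.36, FDR 0.00869) and the cell death gene *BCL2L11* (-0.53, FDR 0.0463). In that fit 2 of the 8 processing genes rose, *DICER1* (0.99, FDR 0.00664) and *DGCR8* (0.65, FDR 0.0346), where 7.41% of all genes passed higher and 7.73% lower. *DICER1* lies on chromosome 14, where the median log2 fold change with all libraries was 0.52. The part of this shift in its value was not tested.

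The proteins that work with these RNAs were described from lists of textbook members. None of the 4 core proteins of box C/D particles (*FBL*, *NOP56*, *NOP58* and *SNU13*), the 4 of box H/ACA particles (*DKC1*, *NHP2*, *NOP10* and *GAR1*) or the 9 assembly factors passed the FDR, and their medians were 0.23, 0.29 and 0.19. All 8 core proteins had log2 fold changes above 0, from 0.08 (*DKC1*) to 0.50 (*NOP10*). None of 14 genes of nonsense-mediated decay passed (median 0.08), and the helicase *UPF1* was at 134, 130 and 135 against 155, 193 and 178 CPM (log2 fold change 0.40, FDR 0.204). When *ZK3*-KO replicate 3 was left out, 2 of these 14 rose, *EIF4A3* (0.88, FDR 0.00693) and *SMG8* (0.71, FDR 0.0138), where 7.41% of all genes passed higher. None of the core proteins and assembly factors passed without that library. None of 10 paraspeckle proteins passed, although all 10 had log2 fold changes above 0 (median 0.29), and measured from the parental mean their median was 0.34, 0.57 and 0.07 in the *ZK3*-KO libraries. Without *ZK3*-KO replicate 3, 4 of the 10 rose, *HNRNPK*, *PSPC1*, *RBM14* and *TARDBP*, with log2 fold changes from 0.52 to 1.02, where 7.41% of all genes passed higher. The *NEAT1* count per gene, from polyadenylated RNA and without separating its transcripts, fell in that fit. Paraspeckles themselves were not measured.

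Of 80 cytosolic ribosomal protein genes, 1 rose (*RPL36AL*, log2 fold change 1.19, FDR 0.0219) and 0 fell, where 0.817% of all tested genes passed higher and 1.23% lower. Their median was at 0.01, -0.10 and 0.68 from the parental mean in the *ZK3*-KO libraries, and all 80 were higher in *ZK3*-KO replicate 3 than in both other *ZK3*-KO libraries. The 15 other TOP mRNAs, such as *EEF1A1* and *TPT1*, had medians of 0.04, 0.01 and 0.31, and none passed. Among these lists the fit without *ZK3*-KO replicate 3 called *RPL36AL* (1.05, FDR 0.00223) and *NPM1* (0.46, FDR 0.0452) higher and none lower. Over all genes, 7.41% passed higher and 7.73% lower in that fit. The hosts shared the high value of *ZK3*-KO replicate 3 with these genes, but the ribosomal protein and TOP lists were near the parental mean in *ZK3*-KO replicates 1 and 2, where the median host was at -0.63 and -0.37. Whether these values of the hosts and the ribosomal protein genes are linked was not tested.

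**Figure D5:**
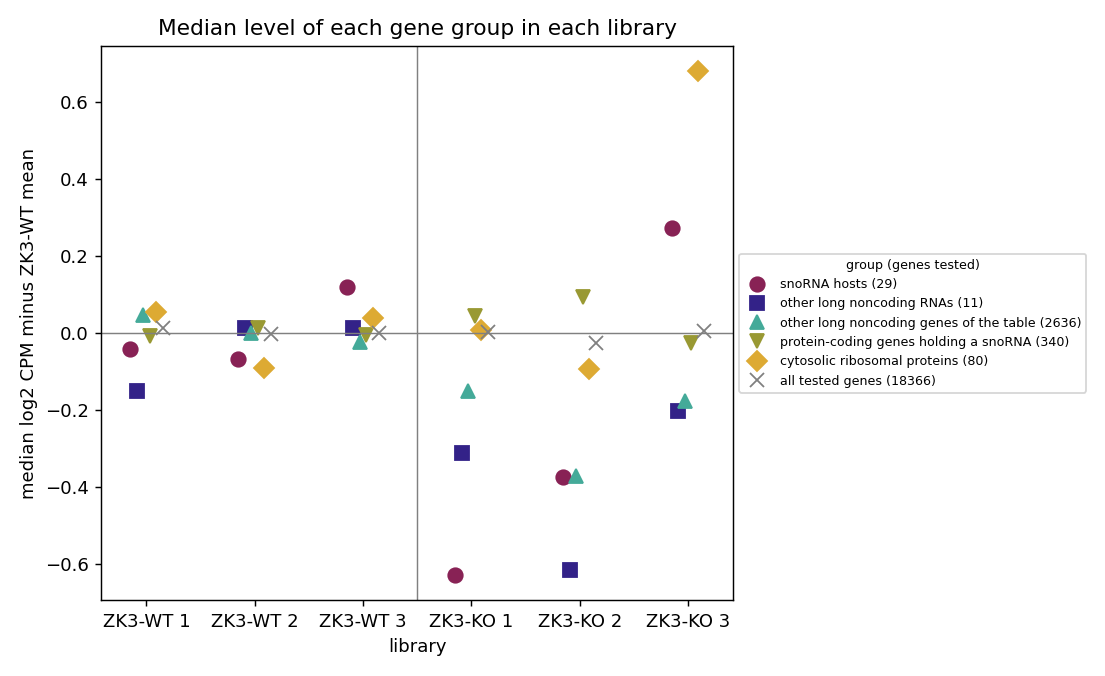
Median log2 CPM relative to the *ZK3*-WT mean for 6 groups of genes in each library. The snoRNA hosts are at -0.63, -0.37 and 0.27 in *ZK3*-KO replicates 1, 2 and 3, the ribosomal protein genes are at 0.68 in replicate 3 alone, and protein-coding genes that hold a snoRNA stay between -0.03 and 0.09.

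A protein-coding gene can be a host as well. The 340 tested protein-coding genes with an annotated snoRNA within their span had a median of 0.08 on the log2 scale, 0 rose and 1 fell, and their medians in *ZK3*-KO replicates 1, 2 and 3 were 0.04, 0.09 and -0.03. For 20.6% of them *ZK3*-KO replicates 1 and 2 lay below every parental library, against 55.2% of the SNHG-type hosts and 26.0% of all genes. Of these 340 genes, 39 rose and 16 fell without *ZK3*-KO replicate 3, where 7.41% of all genes passed higher and 7.73% lower. Long noncoding genes outside the list offered another comparison. Among 2636 of these, 9 rose and 34 fell, where 0.817% of all tested genes passed higher and 1.23% lower. Their median log2 fold change was -0.24, and 1707 of them lay below 0. Leaving out *ZK3*-KO replicate 3 gave 39 that rose and 210 that fell. *ZK3*-KO replicates 1 and 2 lay below every parental library for 32.8% of these genes and for 7 of the 11 other long noncoding RNAs of the list (63.6%). With all libraries, the medians of the hosts (-0.21) and of the other long noncoding RNAs (-0.34) were thus close to that of long noncoding genes in general, whose medians in *ZK3*-KO replicates 1, 2 and 3 were -0.15, -0.37 and -0.18. Without *ZK3*-KO replicate 3 the hosts were at -0.52 and the other long noncoding RNAs at -0.47, against -0.28 for long noncoding genes in general. The likeness therefore depended on that library. The difference between the groups of genes was not tested.

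Finally, the protein-coding neighbours of the members were read. Many did not pass the threshold, such as *OIP5* (log2 fold change 0.04, FDR 0.962), *MORC2* (0.01, FDR 0.971) and *RPS2* (-0.04, FDR 0.926). Over all tested genes, 2.05% passed. The neighbours described next are not typical, because most of them are given for having passed. Beside *EPB41L4A-AS1*, *EPB41L4A* on the other strand, a gene of the band 4.1 family, was at 7.87, 10.4 and 7.39 CPM in *ZK3*-WT and 2.87, 2.39 and 2.01 CPM in *ZK3*-KO libraries, and fell (log2 fold change -1.82, FDR 0.0157). Opposite *ZFAS1*, *ZNFX1*, which encodes a helicase-like zinc finger protein, was at 102, 92.4 and 91.2 against 46.4, 49.2 and 49.5 CPM and fell (log2 fold change -0.98, FDR 0.0154). *ZNFX1* was low in all 3 *ZK3*-KO libraries, whereas *ZFAS1* itself was highest in *ZK3*-KO replicate 3. *GLRX5*, opposite *SNHG10* and needed for iron-sulfur clusters, rose from 39.1 ± 0.666 to 74.1 ± 7.51 CPM (log2 fold change 0.92, FDR 0.0241). It too lies on chromosome 14 (median 0.52), and the part of the chromosome-wide shift in its value was not tested. *SLC3A2*, an amino acid transporter subunit whose start lies 51 bases from that of *SNHG1*, was at 346, 475 and 684 against 327, 216 and 1169 CPM, low in *ZK3*-KO replicates 1 and 2 and high in *ZK3*-KO replicate 3 like the hosts (log2 fold change 0.19, FDR 0.904, and -0.89, FDR 0.0658, without that library). The libraries were stranded, but how strand was used in counting is not given in the sources used here, so part of the reads of such overlapping pairs may be shared.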

How the data were processed

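Libraries of polyadenylated RNA (3 from *ZK3*-WT and 3 from *ZK3*-KO cells) were sequenced. The deposited table holds unnormalized read counts per gene, together with FPKM and TPM values that the authors scaled by transcript length and library size. Bowtie2 2.2.5 is named in the submitters' processing notes, and the methods name Partek Flow with hg19 and an Ensembl annotation. The rows, however, carry identifiers of NCBI Gene and RefSeq. The deposited FPKM values were not used. The deposited TPM values were used for the order of abundance and in 1 alternative.

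The read counts were compared with edgeR 4.0.16 under R 4.3.3 (filterByExpr, TMM, quasi-likelihood test on genotype) over all 18366 genes that passed the filter, with Benjamini-Hochberg adjustment and a threshold of 0.05. A count model was used where the methods name an ANOVA on TPM. Means and SDs are of TMM-normalized CPM, and fold changes are *ZK3*-KO over *ZK3*-WT. The scripts were tested on simulated data. As alternatives, the test was exchanged for DESeq2 1.42.0 or for limma 3.58.1 on log2(TPM + 1), the TMM factors for upper-quartile factors or library totals alone, and the filter for a looser and a stricter one. Further alternatives were the replicate number as a block and fits without each single library. Across genes, the deviations of libraries with the same number had correlations of 0.294, 0.112 and 0.449, and other pairs ran from -0.343 to 0.209. The 0.209, of *ZK3*-WT replicate 1 with *ZK3*-KO replicate 2, was above the 0.112 of the replicate 2 libraries. No source used here says what the numbers mark. The blocked value of a gene is given where it changed a call.

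The members, lists and tests were chosen with earlier results of these data known. Every tested member is named; members past the threshold in the main fit or a fit with a library left out are given in every library, as are *GAS5*, *MALAT1*, *NEAT1*, *H19*, *MEG3*, *PVT1* and *MIR17HG*; of the lists, the genes past the threshold, *MYC*, *IGF2* and protein-coding neighbours are named. Other named genes were chosen after their values were seen. Positions and snoRNA sequences came from GENCODE for GRCh37, matched by symbol, and promoter and microRNA sequences from RefSeq for GRCh38.p14. Numbers of snoRNAs per host were planned from the GRCh37 annotation, which held only part of them by symbol, and were taken from a RefSeq gene table instead. Nothing says that replicates were separate cultures beyond the word biological, so p-values measure the spread between these libraries. Values of some neighbouring and listed genes are not reported here.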

Additional observations from a re-analysis of the deposited data

How the results depend on the processing

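The number of genes past the threshold over all genes was 376, 1506 with DESeq2 and 49 to 2858 with 1 library left out. The number of the 40 genes that fell was 1, 4 with DESeq2 (*SNHG22*, *NEAT1*, *CCAT1* and *SNHG28*), 2 with limma on TPM, 2 with the replicate number as a block (*NEAT1* and *CCAT1*), 0 with at least 10 reads in every library, where *SNHG22* was not tested, and 0 to 13 with 1 library left out (13 without *ZK3*-KO replicate 3 and 0 otherwise). No setting called a member higher. The median of the hosts was -0.52 to -0.03 and that of the other long noncoding RNAs -0.47 to -0.18 with 1 library left out, and the latter was -0.56 with limma on TPM, which moved the median of all genes to -0.08.

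Direction changed for fold changes near 0 and, with 1 library left out, also for larger ones, down to -0.34 (*MALAT1*) in the main fit. *DANCR* was at 0.0064 with DESeq2 and 0.0026 with the block, and *SNHG15* was at -0.090 with library totals alone, -0.15 with limma on TPM and -0.014 with the block. With 1 library left out, the log2 fold change ran from -0.14 to 0.15 for *DANCR*, -0.58 to 0.12 for *H19*, -0.52 to 0.29 for *SNHG15*, -1.19 to 0.16 for *EPB41L4A-AS1*, -1.11 to 0.30 for *GAS5*, -0.59 to 0.034 for *SNHG11*, -1.10 to 0.023 for *SNHG5*, -1.35 to 0.11 for *ZFAS1*, -0.98 to 0.036 for *MALAT1*, -0.70 to 0.0057 for *SNHG29*, -0.83 to 0.064 for *SNHG32* and -0.099 to 0.37 for *SNHG9*. For the other single genes and settings no direction changed. Of 519 values of single genes, 467 kept direction and side of the threshold, 18 came to pass it, 6 no longer passed it and 28 changed direction. The causes were not tested. With 3 libraries a group, differences smaller than the spread seen in *ZK3*-KO cells could not be detected, and the floor of 3 reads covers counting error only.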
